A study of Mus musculus with 4 samples.

Results

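The 36 genes described here encode the parts of epithelial junctions and of the apical side of epithelial cells: claudins, tight junction and desmosome proteins, polarity proteins, the GRHL and OVOL transcription factors, and membrane proteases with their inhibitors. They were chosen by name from epithelial biology, as the rows of the count table whose Ensembl identifiers belong to the named genes, so their measured values played no part in the rule, although earlier results of these data were known when the list was written. All 36 were found among the 55487 genes of the table, and 33 had enough counts in at least one of the days to be tested.

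RNA-seq was made from E14-Tg2a cells, a mouse embryonic stem cell line that the paper uses as wild type beside its edited clones. Libraries were made on day 2 (d2) and day 4 (d4) of a cardiogenic mesoderm protocol, 2 per day from 2 independent differentiation experiments. Cells at d2 had spent 48 h in serum-free medium as embryoid bodies, without added factors. Cells at d4 came from such bodies after dissociation and a further 40 h as new aggregates, in medium with Activin A (8 ng/ml), BMP4 (0.5 ng/ml) and VEGF (5 ng/ml), so that time, factors and reaggregation changed together and cannot be told apart. No transgene or enhancer deletion was made in the cells of these libraries, no sort was involved, and all cells of a culture entered the library. Because the libraries are bulk RNA, fewer cells that use a gene and less RNA per cell cannot be told apart in anything given here.

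Epithelial cells seal the space between neighbours with tight junctions, in which claudins and occludin form strands in the membrane that the ZO proteins, cingulin and other plaque proteins tie to actin. Desmosomes are the spot welds of the same cells: the desmosomal cadherins hold neighbours together, and plakoglobin, the plakophilins and desmoplakin link them to intermediate filaments. The Crumbs, PAR and PATJ proteins mark the apical side, GRHL factors activate junction genes, and OVOL factors restrain mesenchymal genes. The epiblast is itself an epithelium, and cells that form mesoderm leave it through an epithelial to mesenchymal transition, in which SNAI and ZEB repressors bind the E-box CACCTG in promoters of junction genes.

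RefSeq promoter windows on GRCm38.p6, each running from 250 bases before to 50 bases after an annotated transcript start, could be matched to 23 of the 36 genes and gave 32 windows of 300 bases. The letters CACCTG, searched on both strands so that CAGGTG counts as well, stood in 21 of the 32 windows (65.6%), against 20.2% of all 32851 windows in the table. Windows of the same gene overlap for Crb3, Marveld2 and Ocln, so the 32 windows are not independent. By gene, 17 of the 23 held the E-box, and the share over all genes was not counted. Among the 15 matched genes that were lower at d4 in the test described next, 11 held the E-box in at least one window, and so did 6 of the 8 other matched genes, so the motif was present in both sets. The GRHL consensus AACCNGTT, also on both strands, stood in 2 windows, those of Cgn and Rab25 (6.25%, against 2.09% of all windows). These matches describe letters, and no binding was measured here. 5 windows are printed 5′ to 3′ on the strand of the gene, with E-box and GRHL letters in capitals: Epcam (chr17:87635729-87636028, plus strand) and Cldn6 (chr17:23679115-23679414, plus strand), the most abundant of the genes that were lower at d4; Crb3 (chr17:57061951-57062250, plus strand), which has 4 E-box matches; Rab25 (chr3:88548230-88548529, minus strand), which has both motifs; and Dsp (chr13:38151044-38151343, plus strand), the gene with the greatest increase, which has 1 E-box match.
Epcam promoter: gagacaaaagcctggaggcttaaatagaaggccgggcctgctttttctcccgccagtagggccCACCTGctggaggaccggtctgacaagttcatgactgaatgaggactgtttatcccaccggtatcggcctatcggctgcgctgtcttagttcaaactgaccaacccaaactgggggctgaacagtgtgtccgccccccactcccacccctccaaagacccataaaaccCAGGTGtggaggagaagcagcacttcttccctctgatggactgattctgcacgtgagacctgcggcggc
Cldn6 promoter: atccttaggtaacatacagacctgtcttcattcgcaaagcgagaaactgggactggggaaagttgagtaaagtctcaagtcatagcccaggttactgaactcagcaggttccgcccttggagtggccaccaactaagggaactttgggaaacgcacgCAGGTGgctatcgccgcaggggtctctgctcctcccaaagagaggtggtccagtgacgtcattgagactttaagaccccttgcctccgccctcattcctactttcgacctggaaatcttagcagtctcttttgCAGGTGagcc
Crb3 promoter: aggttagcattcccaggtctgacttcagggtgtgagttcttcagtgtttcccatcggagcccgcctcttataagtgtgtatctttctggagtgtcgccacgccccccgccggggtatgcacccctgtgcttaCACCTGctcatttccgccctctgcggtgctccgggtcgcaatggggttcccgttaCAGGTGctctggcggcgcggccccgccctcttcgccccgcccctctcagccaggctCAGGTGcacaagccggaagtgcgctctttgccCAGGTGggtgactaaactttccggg
Rab25 promoter: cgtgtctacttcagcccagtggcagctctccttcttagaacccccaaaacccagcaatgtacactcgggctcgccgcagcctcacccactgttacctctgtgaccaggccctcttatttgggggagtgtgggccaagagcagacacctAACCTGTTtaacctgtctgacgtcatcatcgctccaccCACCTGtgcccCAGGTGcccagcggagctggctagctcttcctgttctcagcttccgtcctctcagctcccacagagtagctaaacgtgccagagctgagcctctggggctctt
Dsp promoter: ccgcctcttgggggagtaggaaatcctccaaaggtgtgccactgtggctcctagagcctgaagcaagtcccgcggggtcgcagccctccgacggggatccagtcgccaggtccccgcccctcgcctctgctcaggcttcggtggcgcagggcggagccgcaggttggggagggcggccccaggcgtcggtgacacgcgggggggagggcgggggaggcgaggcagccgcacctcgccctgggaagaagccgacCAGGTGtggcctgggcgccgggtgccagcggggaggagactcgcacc

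Levels are given as CPM, counts scaled to a common library size, after TMM correction for composition. The 4 libraries held 11397439 to 16851485 counts, so a level of 3 counts, taken here as the floor of detection, corresponds to 0.176 to 0.254 CPM. A gene was called higher or lower at d4 when edgeR's quasi-likelihood test, adjusted by the Benjamini-Hochberg method over all 14932 genes tested, gave an adjusted p under 0.01. Over all these genes 11.3% were called lower and 12.9% higher, 24.3% in either direction. Of the 33 tested junction and polarity genes, lower calls numbered 22 (66.7%) and higher calls 2 (6.06%), which left 9 that did not pass the test. DESeq2 gave 23 lower and 2 higher, against 12.7% and 14.6% of all genes. The median log2 fold change of d4 against d2 was -4.14, and over all genes tested it was -0.03.

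The filter on low counts bears on that share and on the median fold change. 14 of the 33 genes had enough counts at d2 but not at d4, and such genes could enter the test only by being high at d2, whereas none entered through d4 alone. Of the 19 that had enough counts on both days, 9 were lower, against 831 of 12374 among all genes of that kind. Both d2 libraries lay above both d4 libraries for 27 of the 33 genes (35.2% over all genes tested), both d4 libraries lay above both d2 libraries for 3 (35.8% over all genes), and the days overlapped for Tjp1, Jup and Pkp2. Across the 22 genes that were lower, the d4 mean was between 0.39% and 42.2% of the d2 mean, with a median of 2.37%, and it was under 10% for 17 of them. The filter bears on this too, since lower genes that entered only through d2 had to be low at d4. Of the 9 lower genes with enough counts on both days, Epcam, Cldn6, Marveld2 and St14 were under 10%. Cgn, Spint1, Spint2, Prss8 and Dsg2 were at 11.2% to 42.2%.

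**Figure D1:**
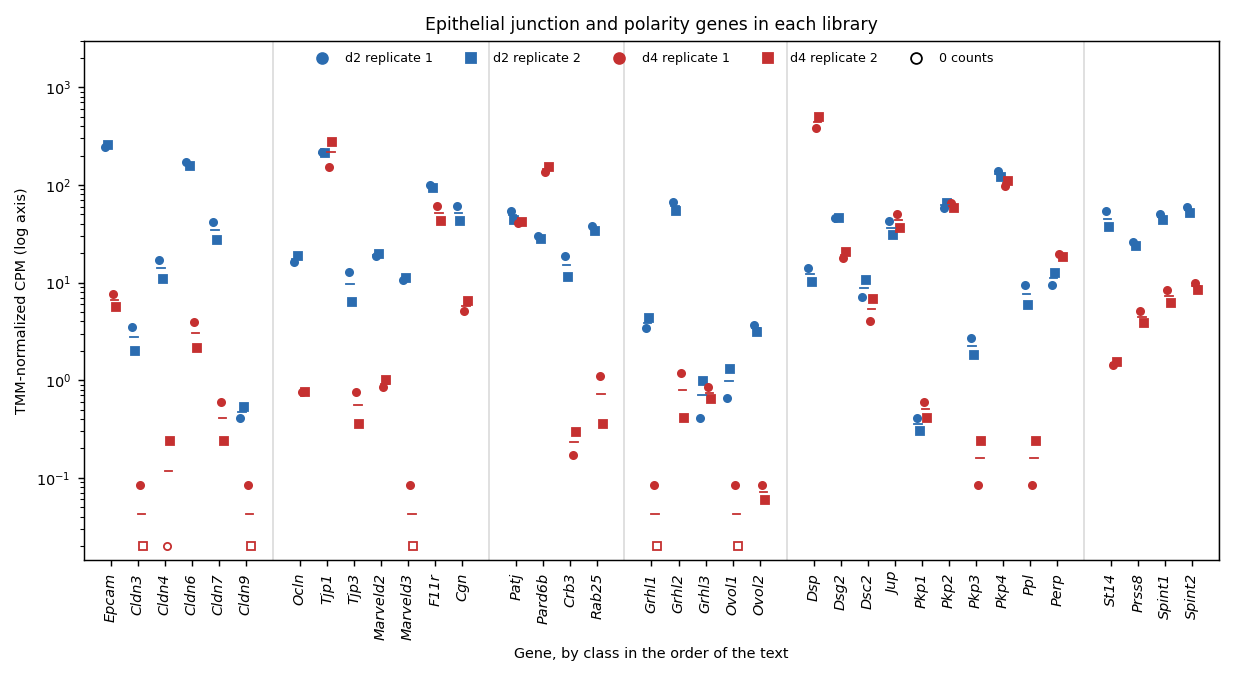
Level of each of the 36 genes in each library, in TMM-normalized CPM on a log axis; blue symbols are the d2 libraries, red symbols the d4 libraries, short lines the mean of each day, open symbols at the bottom a library with 0 counts, and grey lines separate the classes. The blue symbols of Epcam, the claudins, the GRHL and OVOL factors other than Grhl3 and the proteases stand well above the red ones, Dsp and Pard6b are the reverse, and Tjp1, Jup, Pkp2 and the scarce Grhl3 overlap.

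Of the 6 genes for claudins and EPCAM, 5 could be tested, of which Cldn3, Cldn4 and Cldn7 passed the filter only through d2. Each of the 5 was lower at d4, against 11.3% of all genes tested, with a median log2 fold change of -5.96. Epcam, an adhesion protein of simple epithelia that binds claudins, had 247 and 257 CPM in the d2 libraries and 7.62 and 5.65 CPM in the d4 libraries. The days were far apart, and Epcam was 38.0-fold lower at d4 (log2 fold change -5.25 ± 0.26 SE, adjusted p = 4.6e-05). Cldn6, a claudin of early embryonic epithelia, had 170 and 156 CPM at d2 and 3.98 and 2.12 CPM at d4 (log2 fold change -5.76 ± 0.35, adjusted p = 8.1e-05). The 2 d2 libraries of each gene differed little beside the distance to d4.

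Cldn7, a claudin of many simple epithelia, fell from 41.6 and 27.1 CPM to 0.592 and 0.235 CPM (log2 fold change -6.43 ± 0.47, adjusted p = 1.3e-04). Cldn4, a barrier-forming claudin, had 208 and 144 counts at d2 and 0 and 4 counts at d4 (log2 fold change -6.58 ± 0.66, adjusted p = 4.1e-04), so its d4 level was at the floor. Cldn3, which lies 39.3 kb from Cldn4 on chromosome 5, had 43 and 26 counts at d2, then 1 and 0 at d4. With so few counts its fold is poorly bounded: the depth-scaled ratio of d2 to d4 was 78.3 with a 95% counting interval of 13.6 to 3136, which covers counting error only, and the adjusted p was 0.0016. Cldn9 lies 137 bases from Cldn6 on chromosome 17 and is close to it in sequence. Its 5 and 7 counts at d2 against 1 and 0 at d4 left it under the filter, and since reads that fit more than 1 place were not counted, the low level of Cldn9 and the level of Cldn6 are both uncertain to that extent.

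Comparison between genes needs levels per length, given here as CPM per kb of merged exon. Summed over 23 claudins, the level was 145 and 130 CPM per kb at d2 and 33.7 and 30.6 at d4. At d2 Cldn6 made up 67.9% and 69.9% of this sum and Cldn7 14.7% and 10.7%. At d4 Cldn6 made up 6.86% and 4.02%, and the sum was mostly Cldn12, at 57.3% and 53.5%, and Cldn11, at 28.2% and 33.5%. Cldn6 led in both d2 libraries and Cldn12, then Cldn11, in both d4 libraries.

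Those 2 claudins came from a list of companion genes, 76 other genes of the same structures written down by name, of which 45 were tested and 10 were lower, 6 higher and 29 not called at d4, shares of 22.2% lower and 13.3% higher against 11.3% and 12.9% over all genes tested, so the share of higher calls was close to that of all genes. Among the 18 other claudins only 4 had enough counts. Cldn11, the claudin of myelin and of Sertoli cell junctions, had 0 counts in both d2 libraries and 210 and 326 at d4, which makes it at least 78.1-fold higher when each d2 library is set to the floor of 3 counts (adjusted p = 1.1e-04). Cldn1, the claudin of the epidermal barrier, had 18 and 25 counts at d2 and none at d4, at least 7.83-fold lower with each d4 library set to that floor (adjusted p = 0.0020). Cldn12 did not pass the test, with 44.1 and 65.3 CPM at d2 and 81.7 and 69.2 CPM at d4 (adjusted p = 0.19), and neither did Cldn5, the main claudin of endothelium, with 2.13 and 0.911 CPM at d2 and 1.78 and 2.24 CPM at d4 (adjusted p = 0.51). The Cldn5 values overlapped between days.

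Of the 7 tight junction membrane and plaque proteins, 5 were lower at d4 and Tjp1 and F11r did not pass the test. Over all genes tested 11.3% were lower. Of the lower genes in this class, Ocln, Tjp3 and Marveld3 passed the filter only through d2. The 3 genes of the occludin family, all membrane proteins of tight junctions, were lower together. Occludin, Ocln, had 16.3 and 18.7 CPM at d2 and 0.762 and 0.765 CPM at d4 (log2 fold change -4.50 ± 0.31, adjusted p = 1.1e-04). Marveld2, or tricellulin, the protein of corners where 3 cells meet, had 18.9 and 19.6 CPM at d2 and 0.846 and 1.00 CPM at d4 (log2 fold change -4.36 ± 0.29, adjusted p = 1.1e-04). These neighbours on chromosome 13 are 43.2 kb apart, and per length Marveld2 was above Ocln in every library. At d2 Marveld2 had 5.59 and 5.79 CPM per kb and Ocln 3.85 and 4.42. At d4 Marveld2 had 0.250 and 0.296 CPM per kb and Ocln 0.180 and 0.181. Marveld3 had 129 and 147 counts at d2, then 1 and 0 at d4, a depth-scaled ratio of 313 with a counting interval of 55.7 to 12411 (adjusted p = 1.5e-04). Per length, the family summed to 12.7 and 13.6 CPM per kb at d2 and 0.456 and 0.477 at d4.

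The plaque genes were split. Tjp3, or ZO-3, had 12.8 and 6.30 CPM at d2 and 0.762 and 0.353 CPM at d4 (log2 fold change -4.14 ± 0.54, adjusted p = 0.0012). Cgn, cingulin, which ties ZO proteins to the actomyosin belt, had 60.2 and 42.7 CPM at d2 and 5.08 and 6.47 CPM at d4 (log2 fold change -3.15 ± 0.28, adjusted p = 2.6e-04). Both groups of values were separate. Tjp1, or ZO-1, the scaffold found also in junctions of cells that are not epithelial, had 215 and 212 CPM at d2 and 154 and 277 CPM at d4. Its d4 libraries lay on either side of d2, and the log2 fold change was 0.01 ± 0.29 (adjusted p = 0.98).

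F11r, or JAM-A, an immunoglobulin-like protein of tight junctions, had 98.8 and 93.0 CPM at d2 and 60.6 and 42.2 CPM at d4. The days did not overlap, but the test did not pass (log2 fold change -0.90 ± 0.24, adjusted p = 0.023). F11r did pass in DESeq2 (log2 fold change -0.91, adjusted p = 0.0084) and in edgeR with the trend of GC content and length removed (-1.04, adjusted p = 0.0011). Both alternatives called more of all genes lower, 12.7% and 19.5%, against 11.3% in the main fit.

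Among the 20 other tight junction proteins, all tested, 5 were lower, 3 higher and 12 not called. The shares over all genes tested were 11.3% lower and 12.9% higher, so the number of higher calls was close to its share. Ildr1 and Ildr2, angulins that recruit tricellulin to tricellular corners, were both lower: Ildr1 had 96 and 100 counts at d2, then 2 and 1 at d4, a depth-scaled ratio of 74.1 with a counting interval of 25.0 to 362.5 (adjusted p = 1.7e-04). Ildr2 had 7.69 and 7.21 CPM at d2 and 0.423 and 0.294 CPM at d4 (log2 fold change -4.38 ± 0.38, adjusted p = 2.3e-04). Magi3, a scaffold of the membrane-associated guanylate kinase group, rose from 15.9 and 17.3 CPM to 78.5 and 105 CPM (log2 fold change 2.47 ± 0.24, adjusted p = 3.5e-04). The scaffold Magi3 and the membrane proteins Ildr1 and Ildr2 thus moved in opposite directions.

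Of the JAM group genes found in endothelium, Esam was higher and Jam2 and Jam3 did not pass the test. Esam, an adhesion protein of endothelial tight junctions, had 1 and 3 counts at d2, then 448 and 402 at d4, from 0.155 ± 0.103 to 30.8 ± 10.1 CPM (mean ± SD, n = 2), with a log2 fold change of 7.53 ± 0.50 (adjusted p = 1.0e-04). Jam2 had 0.818 and 0.456 CPM at d2 and 1.61 and 1.88 CPM at d4 and did not pass the test (adjusted p = 0.038). Jam3 had 48.7 and 57.3 CPM at d2 and 74.7 and 61.6 CPM at d4 and did not pass either (adjusted p = 0.22). Per length, the JAM and ESAM sum stayed between 43.7 and 59.6 CPM per kb in all libraries, with F11r at 70.7% and 65.9% of it at d2 and 38.2% and 36.3% at d4, and Esam at 0.0544% and 0.15% at d2 and 22.2% and 18.9% at d4.

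**Figure D2:**
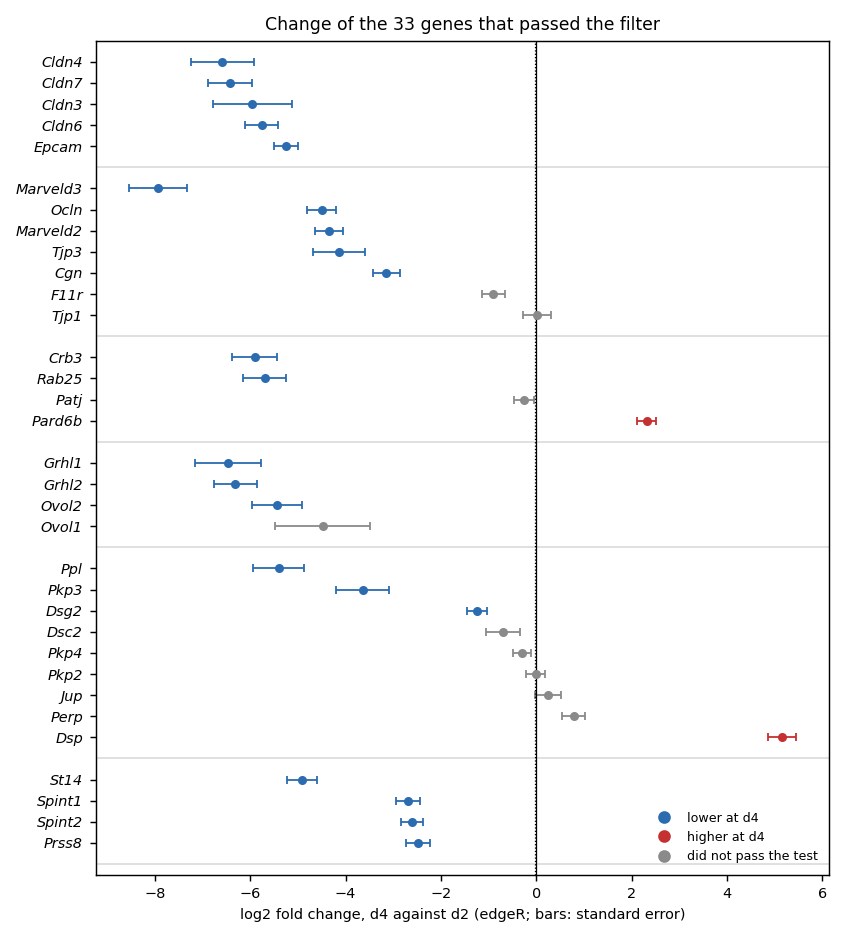
Log2 fold change of d4 against d2 for the 33 tested genes, by class from top to bottom in the order of the text, with bars for the standard error of the edgeR fit; blue points were lower, red points higher and grey points did not pass the test. The polarity and desmosome classes hold blue, grey and red points and the tight junction class blue and grey ones, while the claudin and protease classes are blue throughout.

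The 4 polarity and apical transport genes took 3 courses: 2 were lower, 1 was higher and 1 was not called. The shares over all genes tested were 11.3% lower and 12.9% higher. Crb3, the small Crumbs protein of epithelial apical membranes, had 18.6 and 11.3 CPM at d2 and 0.169 and 0.294 CPM at d4 (log2 fold change -5.90 ± 0.48, adjusted p = 1.8e-04). Rab25, a small GTPase of apical recycling in epithelia, had 38.4 and 33.6 CPM at d2 and 1.10 and 0.353 CPM at d4 (log2 fold change -5.70 ± 0.46, adjusted p = 1.8e-04). For both, every d4 value was a small part of every d2 value, and both passed the filter only through d2. Patj, the scaffold that joins Crumbs to the tight junction, had 54.0 and 43.4 CPM at d2 and 40.5 and 41.4 CPM at d4 and did not pass the test (adjusted p = 0.39).

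Pard6b, which encodes a PAR6 subunit of the PAR complex with atypical protein kinase C, went the other way, from 29.8 and 28.0 CPM at d2 to 137 and 152 CPM at d4. It was 4.99-fold higher (log2 fold change 2.32 ± 0.20, adjusted p = 2.3e-04), and the libraries of each day were close. Per length, the 3 PAR6 genes summed to 20.8 and 18.3 CPM per kb at d2 and 53.2 and 57.4 at d4, and the Pard6b share went from 42.2% and 45.1% to 75.7% and 78.0%. This sum was not tested. Pard6a and Pard6g, the remaining members of the family, did not pass the test (adjusted p = 0.85 and 0.22) and are named after their values were seen.

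The Crumbs family had another leading gene on each day. Crb2, a large Crumbs protein from the companion list, known for its need in cells that leave the primitive streak, had 6.38 and 4.78 CPM at d2 and 141 and 109 CPM at d4 (log2 fold change 4.48 ± 0.28, adjusted p = 8.4e-05). Crb3 made up 92.0% and 90.1% of the Crumbs sum per length at d2 and 0.512% and 1.14% at d4, and Crb2 went from 7.35% and 8.9% to 99.5% and 98.8%. Crb1 was low throughout, with 15 counts in each d2 library and 0 and 1 at d4 (depth-scaled ratio 34.0, counting interval 5.66 to 1389, adjusted p = 0.0035). Of the 19 other polarity proteins, 17 were tested, with 2 lower, 2 higher and 13 not called, a number in each direction close to that expected from the shares over all genes. Besides the Crumbs genes, Prkcz, an atypical protein kinase C, was lower (20.5 and 15.5 CPM at d2, 5.42 and 5.12 CPM at d4, log2 fold change -1.77, adjusted p = 0.0022), and Dlg5, a scaffold of the Discs large family, was higher (82.0 and 50.5 CPM at d2, 275 and 239 CPM at d4, log2 fold change 1.96, adjusted p = 0.0017).

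**Figure D3:**
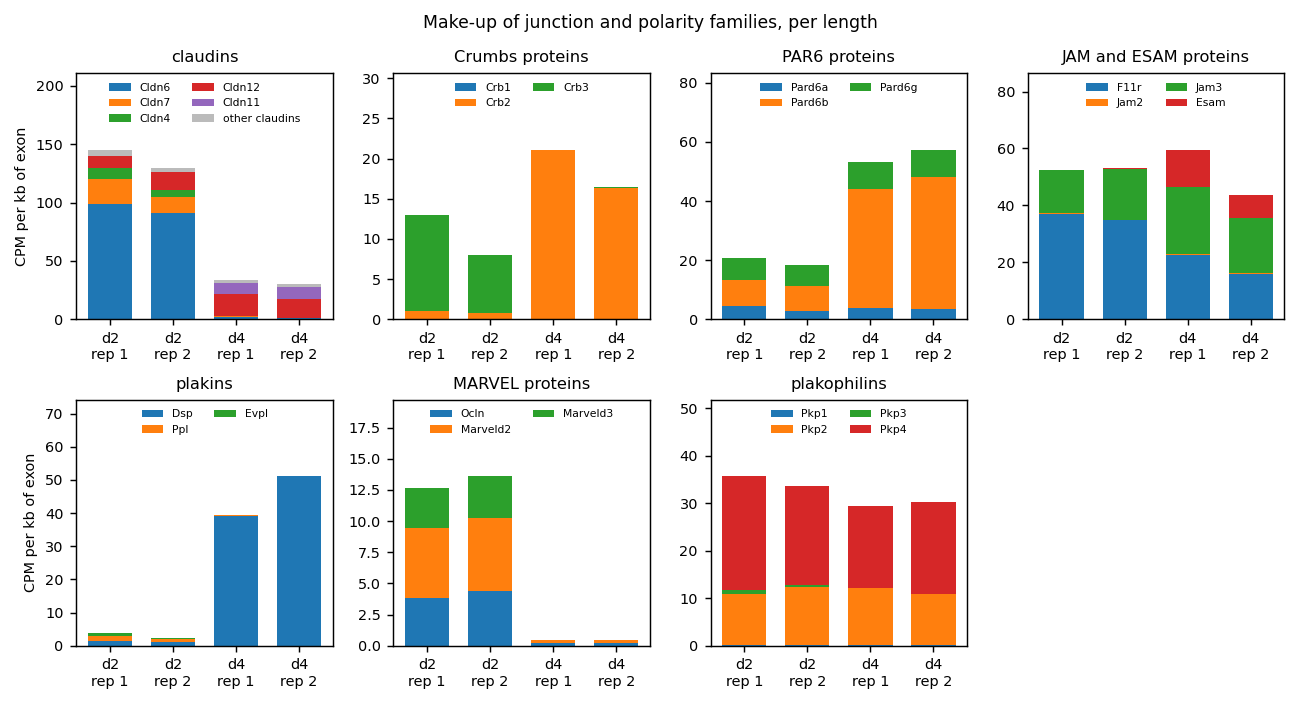
Make-up of gene families in each library, as stacked CPM per kb of merged exon on linear axes that start at 0; each bar is 1 library and each colour 1 gene, with panel scales that differ. The claudin and MARVEL bars are lower at d4, the plakin and PAR6 bars are higher, the Crumbs bars pass from Crb3 to Crb2, and the plakophilin bars stay at similar height.

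Of the 5 grainyhead-like (GRHL) and OVO-like (OVOL) factors, 4 could be tested, each of these only through its d2 counts, and 3 were lower at d4. The share of lower genes over all genes tested was 11.3%. Grhl2 was the most abundant, with 66.8 and 54.5 CPM at d2 and 1.18 and 0.412 CPM at d4 (log2 fold change -6.31 ± 0.45, adjusted p = 1.2e-04). Grhl1 had 42 and 57 counts at d2, then 1 and 0 at d4, a depth-scaled ratio of 112 with a counting interval of 19.7 to 4480 (adjusted p = 5.3e-04). Ovol2 had 45 and 41 counts at d2 and 1 in each d4 library, a ratio of 48.8 with an interval of 13.1 to 409 (adjusted p = 3.6e-04). In these 3 genes no d4 library came near d2.

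Ovol1 was scarce at d2 as well, with 8 and 17 counts, and had 1 and 0 at d4. Its ratio was 28.4, with an interval of 4.64 to 1164, and it did not pass the test (adjusted p = 0.011). Grhl3, with 5 and 13 counts at d2, then 10 and 11 at d4, stayed under the filter and its days overlapped, so a difference was not detectable at this depth.

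The desmosome genes did not all move in 1 direction: of 10, 9 were tested, 3 were lower, 1 was higher and 5 did not pass the test. All genes tested gave 11.3% lower and 12.9% higher, so 1 higher call among 9 was close to that share. Of the lower genes, Ppl and Pkp3 passed the filter only through d2. Dsp, desmoplakin, the plakin that anchors intermediate filaments to the plaque of desmosomes and of some endothelial junctions, had 14.2 and 10.2 CPM at d2 and 379 and 494 CPM at d4. All d4 values were far above d2, and the mean went from 12.2 ± 2.87 to 437 ± 80.9 CPM (SD, n = 2). Dsp was 35.8-fold higher (log2 fold change 5.16 ± 0.29, adjusted p = 6.6e-05), the largest increase among the 33 genes. Of the other plakins only Ppl and Evpl were looked at, and both went down. Ppl, periplakin, had 9.49 and 5.85 CPM at d2 and 0.0846 and 0.235 CPM at d4 (log2 fold change -5.41 ± 0.54, adjusted p = 3.9e-04). Evpl, envoplakin, a companion gene, had 5.72 and 2.89 CPM at d2 and 0.423 and 0.412 CPM at d4 (log2 fold change -3.34, adjusted p = 0.0023). Dsp thus made up 39.3% and 44.8% of these 3 plakins per length at d2 and 99.8% in each d4 library.

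Of the desmosomal cadherins, Dsg2 was lower and Dsc2 did not pass the test. Dsg2, desmoglein-2, the desmoglein of simple epithelia and heart, had 45.5 CPM in each d2 library and 17.9 and 20.6 CPM at d4 (log2 fold change -1.24 ± 0.21, adjusted p = 0.0035). Dsc2, desmocollin-2, had 7.03 and 10.6 CPM at d2 and 4.06 and 6.77 CPM at d4, close but not overlapping, and did not pass the test (log2 fold change -0.70 ± 0.36, adjusted p = 0.17).

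Among the armadillo proteins of the plaque, only Pkp3 was lower, a plakophilin of simple and layered epithelia, with 33 and 24 counts at d2, then 1 and 4 at d4 (log2 fold change -3.64 ± 0.57, adjusted p = 0.0026). Jup, plakoglobin, which adherens junctions use as well, had 42.7 and 30.5 CPM at d2 and 50.8 and 36.5 CPM at d4 (adjusted p = 0.49). Pkp2, the plakophilin of the heart, had 58.1 and 65.6 CPM at d2 and 64.7 and 57.8 CPM at d4 (adjusted p = 0.97). The days overlapped in both genes. Pkp4, which binds classical cadherins too, had 137 and 119 CPM at d2 and 98.2 and 111 CPM at d4 (adjusted p = 0.28), and Pkp1, of layered epithelia, stayed under the filter at 4 to 7 counts per library.

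Plakophilins together held 35.7 and 33.7 CPM per kb at d2 and 29.4 and 30.3 at d4, of which Pkp2 and Pkp4 made up nearly all in every library. Perp, a membrane protein of desmosomes, had 9.49 and 12.5 CPM at d2 and 19.6 and 18.5 CPM at d4 without overlap, and did not pass the test (log2 fold change 0.79 ± 0.25, adjusted p = 0.043). Of the 9 companion genes of desmosomes and the cornified envelope, 2 had enough counts: Evpl, given above, and Pnn, which encodes a nuclear splicing protein also described at desmosomes and did not pass the test (adjusted p = 0.081).

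The 4 epithelial proteases and inhibitors were lower at d4 throughout, against 11.3% of all genes tested, and all 4 had enough counts on both days. St14, matriptase, a membrane serine protease of epithelia, had 53.7 and 36.8 CPM at d2 and 1.44 and 1.53 CPM at d4 (log2 fold change -4.92 ± 0.31, adjusted p = 9.4e-05). Prss8, prostasin, its partner in a protease cascade, had 26.3 and 23.6 CPM at d2 and 5.08 and 3.88 CPM at d4 (log2 fold change -2.48 ± 0.26, adjusted p = 4.9e-04). The protease St14 thus had 3.28% of its d2 level at d4, and Prss8 18.0%.

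Their Kunitz-type inhibitors moved by similar amounts to Prss8. Spint1, or HAI-1, had 50.6 and 43.7 CPM at d2 and 8.46 and 6.18 CPM at d4 (log2 fold change -2.69 ± 0.26, adjusted p = 3.4e-04), and Spint2, or HAI-2, had 60.0 and 51.6 CPM at d2 and 9.99 and 8.41 CPM at d4 (log2 fold change -2.60 ± 0.23, adjusted p = 2.5e-04). The days were separate for both. Of the 10 other epithelial proteases and inhibitors, 2 were tested: Hpn, hepsin, was lower (9.40 and 6.68 CPM at d2, 2.71 and 2.06 CPM at d4, log2 fold change -1.76, adjusted p = 0.0057), and Tmprss2 overlapped between days (adjusted p = 0.44).

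Cell type markers moved with these genes, and their part in the results was not tested. Of 8 markers of pluripotent and epiblast cells, 7 were lower at d4, and their summed level went from 1352 to 1625 CPM at d2 to 33.3 to 43.9 CPM at d4. Of 8 markers of primitive streak and mesoderm, 7 were higher, with sums of 3.43 to 3.80 CPM at d2 and 1106 to 1269 CPM at d4, and of 8 endothelial markers, which include Esam and Cldn5, 7 were higher, with sums of 10.9 to 12.8 and 419 to 565 CPM.

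Markers of other epithelia are given beside Dsp, Pard6b and Perp, the tested genes whose d4 libraries were both above d2. Of 8 trophoblast markers, 6 were tested, 4 were higher and 1 lower, with sums of 5.01 to 5.89 CPM at d2 and 55.5 to 59.3 CPM at d4, while Elf5 and Tpbpa had at most 1 count in any library. Of 8 definitive endoderm markers, 5 were tested, 4 were higher and 1 lower, and the sum was 295 to 362 CPM at d2 and 164 to 209 CPM at d4. Trh, the lower one, made up nearly all of the d2 sum, with 359 and 292 CPM at d2 and 12.2 and 9.71 CPM at d4, whereas Cxcr4 had 0.736 and 0.835 CPM at d2 and 103 and 104 CPM at d4. The higher ones were Sox17, Cer1, Cxcr4 and Hhex, whereas Foxa2, Foxa1 and Shh were under the filter. Bulk RNA does not show which cells expressed the higher ones, and whether these were endoderm was not tested. Of 8 extraembryonic endoderm markers, 4 were tested, 1 was higher and 1 lower, with sums of 76.2 to 81.9 and 53.9 to 93.8 CPM, and Afp, Ttr, Apoa1 and Amn were under the filter. Rhox5, the lower one, made up most of the d2 sum, with 79.1 and 74.7 CPM at d2 and 5.76 and 5.82 CPM at d4. Sox7, the higher one, made up most of the d4 sum, with 0 counts in both d2 libraries and 83.6 and 45.7 CPM at d4. The paper lists Sox7 also among the marker genes of an endothelial cluster. Of 8 markers of surface ectoderm and stratified epithelium, 2 were tested and 1 was lower, with sums of 9.34 to 15.1 and 4.65 to 6.35 CPM, and Krt5 had 0 counts in every library.

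With only 1 d2 library left, no gene of the table reached the threshold in edgeR. Without either d2 library, edgeR's quasi-likelihood test called none of the 33 genes and no gene at all at an adjusted p under 0.01: the lowest adjusted p over all genes was then 0.0189 without d2 replicate 1 and 0.018 without d2 replicate 2, while 6257 and 5973 genes, 26 of the junction and polarity genes in each case, had p under 0.05 before adjustment. The 24 called genes had adjusted p-values of 0.018 to 0.0552 in those fits. DESeq2, run in the same way, called 19 of the 24 without d2 replicate 1 and 20 without d2 replicate 2, against 4.96% and 4.9% of all genes called lower and 7.06% and 6.61% called higher. Without either d4 library edgeR called all 24, and DESeq2 called 22 of them without d4 replicate 1 (7.61% of all genes lower and 8.42% higher) and 21 without d4 replicate 2 (9.83% lower and 8.59% higher). The sign of all 24 fold changes was the same in every one of these fits, and among those from edgeR without a d2 library only that of Tjp3 moved by more than 1.5 times (Epcam was at -5.29 without d2 replicate 1 and -5.29 without d2 replicate 2).

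**Figure D4:**
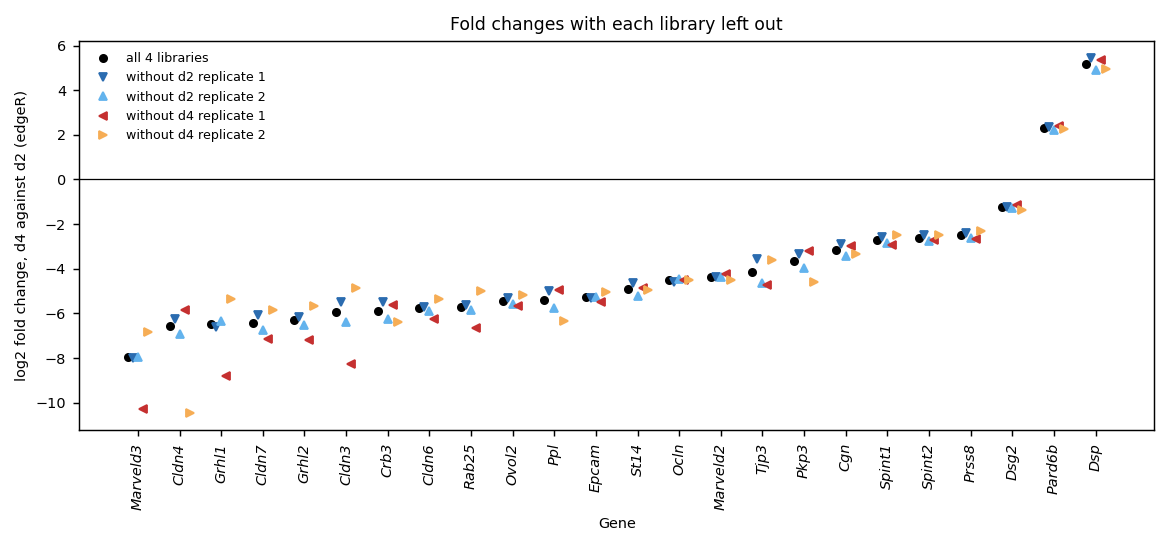
Log2 fold change of d4 against d2 for the 24 genes that were lower or higher at d4, with all 4 libraries (black) and with each library left out in turn (coloured triangles), from edgeR. No gene crosses 0, Dsp stays between 4.89 and 5.42 over edgeR and DESeq2, and genes with few d4 counts such as Cldn4, Cldn3, Grhl1 and Marveld3 spread most when a d4 library is left out.

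The size of the fold changes of genes near the floor depended on single d4 libraries. Cldn4 went from a log2 fold change of -6.58 to -10.44 without d4 replicate 2 and to -5.83 without d4 replicate 1, Marveld3 from -7.94 to -10.26 without d4 replicate 1 and to -6.84 without d4 replicate 2, and Cldn3 and Grhl1 to -8.28 and -8.78 without d4 replicate 1 and to -4.85 and -5.36 without d4 replicate 2. Cldn7, Grhl2 and Rab25 moved by more than 1.5 times without either d4 library (to -7.13, -7.17 and -6.63 without replicate 1, and to -5.83, -5.66 and -5.01 without replicate 2), Pkp3 and Ppl without d4 replicate 2 (to -4.58 and -6.34), and Tjp3 without d2 replicate 1 (to -3.55).

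Replicate 2 differed from replicate 1 with GC content: across genes, which are not independent replicates, Spearman's rho of their log2 difference with GC content was -0.703 at d2 and -0.483 at d4. The 33 genes had a median GC content of 52.7%, against 49.7% over all genes tested. Of the 33, 24 were lower in d2 replicate 2 than in d2 replicate 1, and the share over all genes was not counted. With the trend of GC content and length removed, all 24 calls remained, and F11r, Perp and Ovol1 passed as well (adjusted p = 0.0011, 0.0081 and 0.0066). Calls were more frequent in that fit in general: 19.5% of all genes were lower and 17.1% higher, against 11.3% and 12.9% in the main fit.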

How the data were processed

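Per the labels and the study's methods, the authors trimmed 75 bp reads with cutadapt 2.9 (quality 30, minimum length 30), aligned them to mm10 (GRCm38) with STAR 2.6.0a and assigned them to genes on the reverse strand by featureCounts (Rsubread 2.0.1), leaving out reads with several positions or genes. The sample labels name forward-strand counts, whereas the methods and the deposited table name the reverse strand. The annotation is named both as GENCODE M10 and as Ensembl 102. The deposited values are raw counts per gene for 4 libraries, and 0 value columns were left unused.

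Here, symbols, positions and exon lengths came from GENCODE M21 on GRCm38 (55227 of 55487 identifiers matched). A gene was tested if the summed counts of a day exceeded 0.5 CPM (one-sided proportion test, adjusted p under 0.05). Counts were scaled by TMM and tested two-sided with edgeR 4.0.16 (quasi-likelihood, day as the only term, Benjamini-Hochberg over all genes tested, threshold 0.01) in R 4.3.3. The common biological coefficient of variation was 23.6%. An exact permutation test of 2 against 2 libraries cannot go below p = 0.333 and was not used. DESeq2 1.42.0, limma 3.58.1 (voom), other scalings, filters and thresholds, thinning, GC content and length offsets, a replicate block and the loss of each library were alternatives. The scripts were tested on simulated data. The 36 genes, the companion genes and the markers were chosen with earlier results of these data known. All 36 genes are named, with up to 4 companion genes of lowest adjusted p per class and Cldn5, Esam, Jam2 and Jam3. Pard6a and Pard6g were named outside this rule. Of the companion genes counted, 1 is not reported here by its values. Promoters are from RefSeq (GRCm38.p6). No same-strand exon overlap was found for the 36 genes. Counting intervals cover counting error only.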

Additional observations from a re-analysis of the deposited data

How the results depend on the processing

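Across the 13 alternatives that kept all libraries, all 24 calls held (312 of 312 values). Those that only changed the threshold, to 0.05 or to an added log2 fold change of at least 1, reuse the main fit. Their values could not differ from it and add no separate evidence. The median log2 fold change of the tested genes, -4.14, was -3.53 without a filter on low counts and -3.64 with edgeR's filterByExpr, which test other sets of genes. With 1 library left out, edgeR gave -4.25 to -3.55 for it, 0 to 24 lower and 0 to 2 higher genes, 0 to 12 lower and 0 to 6 higher companion genes, and 0 to 4722 genes called in all, against 3627 with all libraries. The counts of 0 came from the fits without d2 replicate 1 or 2. DESeq2 there gave medians of -3.55 (without d2 replicate 1) and -3.66 (without d4 replicate 2), 3, 4 and 6 lower companion genes and 1774, 1695 and 2374 genes in all (without d2 replicate 1, d2 replicate 2 and d4 replicate 1). All genes called were 5774 without the filter, 5670 at an adjusted p under 0.05 and 5465 with GC content and length trends removed.

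The replicate numbers do not pair the samples by any label, and only 2 pairs exist: the differences between replicates 1 and 2 at d2 and d4 had a correlation of 0.446 across genes. With the replicate block all 24 calls held and F11r, Perp and Ovol1 joined them, 11 companion genes were higher, and 6974 genes were called (6765 with the GC and length trend removed as well, where Patj and Pkp4 were also lower, at -0.53 and -0.63, with adjusted p of 0.0089 and 0.0036).

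Near 0, Tjp1, Jup and Pkp2, none of them called, changed sign. Tjp1 was at -0.0781 with upper-quartile factors, -0.0427 with limma voom, -0.0471 with the replicate block, -0.18 with the GC and length trend removed and -0.24 with both, and ran from -0.468 to 0.378 with 1 library left out in edgeR (in DESeq2 -0.00929 without d2 replicate 2 and -0.48 without d4 replicate 2). Jup was at -0.0676 with the trend removed, -0.0707 with the block as well, and ran from -0.034 to 0.502 with 1 library left out. Pkp2 ran from -0.106 to 0.0703 (in DESeq2 0.0607 without d2 replicate 2 and 0.0575 without d4 replicate 2). The cause of these shifts was not tested. A gene at the floor of 0.176 to 0.254 CPM at d4 has a fold change whose size this depth cannot fix.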
